A study of Caenorhabditis elegans with 6 samples.

Results

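The genes for the protein factors of translation were examined in Caenorhabditis elegans with a mutation in ung-1, the uracil-DNA glycosylase gene, and in wild type worms. Membership followed a rule on gene names. A probe set counted when the platform annotation gave it 1 gene symbol and that symbol began with eif, eef, ife, iff, ifg, iftb, inf, eftu, erfa or etf, followed by numbers or capitals. This took 33 of the 17118 genes named on the array, measured by 51 of 22548 probe sets. The value of a gene is that of its probe set with the highest mean. A further 2 probe sets that name eif-1 or inf-1 together with another gene were left out, and genes whose symbols do not follow this pattern, such as eif-2alpha, are not members.

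The samples were 3 arrays labelled ung-1 mutant and 3 arrays of wild type N2, the standard laboratory strain, each called a biological replicate in its title. The labels gave no allele, stage, tissue, culture condition or DNA damaging treatment, and the design text, unlike the sample labels, calls the worms RNAi mutants. Total RNA was measured on whole-genome C. elegans arrays made by Affymetrix. Values are intensities in arbitrary units, and each log2 fold change is the mutant mean less the N2 mean of log2(intensity + 16). Probe sets differ in brightness for the same amount of RNA, so levels are compared only between samples and never between genes.

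Translation begins when eIF4F, made of the cap-binding protein eIF4E, the scaffold eIF4G and the helicase eIF4A, loads an mRNA onto the small ribosomal subunit. That subunit carries eIF1, eIF1A, eIF2 with the initiator tRNA, and the large eIF3 complex. After the large subunit joins, eEF1A delivers aminoacyl-tRNAs, its exchange factor eEF1B recharges it with GTP, and eEF2 moves the ribosome along until the release factors eRF1 and eRF3 end synthesis at a stop codon. In C. elegans several of these factors are encoded by paralogs, some used in the germline and some in the soma.

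The ung-1 probe set read 54.9, 55.3 and 47.7 on the mutant arrays and 236, 254 and 296 on the N2 arrays, so the groups did not overlap and the labels were borne out at this probe set. Array medians were 153 to 161 in the mutant, against 158 to 168 in N2. The 3' over 5' ratio of control probe sets is often read for RNA integrity. For GAPDH it ran from 5.01 to 8.77 in the mutant and from 8.30 to 11.8 in N2. The bacterial control Bs-phe, which is not worm RNA, also ran lower in the mutant, at 5.28 to 5.31 against 6.28 to 6.94. For the yeast control WBP1 the ranges overlapped, at 1.97 to 2.58 in the mutant and 1.77 to 2.35 in N2. What sets these ratios, and their part in the results, was not tested. Array weights estimated by limma were lowest for mutant replicate 3 (0.47) and N2 replicate 2 (0.46) and lay between 0.69 and 3.52 for the other arrays. The labels did not say how cultures were separated, so p-values measure the spread between these samples, which may be technical.

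None of the 33 translation factor genes passed the test for a difference between the mutant and N2. In limma, with p-values adjusted by Benjamini-Hochberg over every probe set tested, 0 members passed 0.05, as did 0% of all genes, and the adjusted p was 0.999 for each member. In the same test ung-1 itself did not pass, with a log2 fold change of -2.01 and a limma adjusted p of 0.0765. At an unadjusted p under 0.05 there were also 0 members, against 1.86% of all genes. The log2 fold changes ran from -0.11 for iff-1 to 0.46 for eif-2A, and all 33 confidence intervals (95%) included 0. In 25 genes the fold change lay within 1 standard error of 0, as it did in 12354 of all 17118 genes.

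The fold changes leaned to the positive side without any gene passing. They were positive in 23 genes and negative in 10, with a median of 0.06, where 41.7% of all genes were positive and the median of all genes was -0.04. Over all probe sets, 44.5% were positive in the main fit. Without mutant replicate 3 the members' median was 0.17, with 25 positive beside 45.5% of all probe sets. Without N2 replicate 2 the members' median was 0.06, with 23 positive beside 49.5%. With each array centred on its median, 24 members were positive beside 53.3% of all probe sets, and with quantile normalization 22 were positive beside 51.2%. The 62 cytosolic ribosomal protein genes, measured on the same arrays, had a median of 0.01 with 36 positive.

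**Figure D1:**
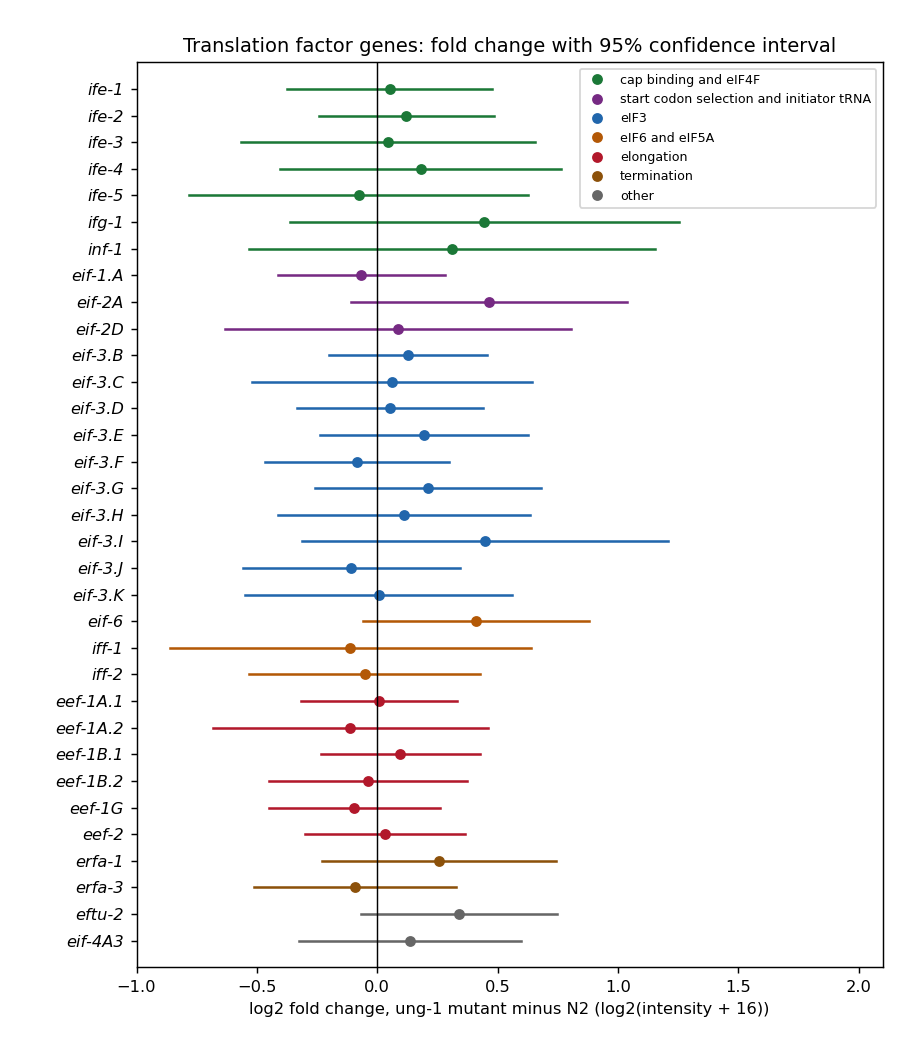
Log2 fold change of each of the 33 translation factor genes, ung-1 mutant minus N2, on the log2(intensity + 16) scale (horizontal axis), with limma's 95% confidence interval as a bar and colours for the role of the factor. Every bar crosses 0, and the points lie between -0.11 and 0.46.

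In 3 of the 33 genes, eif-6, eif-2A and eftu-2, all mutant arrays read above all N2 arrays, beside 1.95% of all genes. In 0 members did the mutant arrays all read lower, beside 4.46% of all genes. None of the 3 genes reached an unadjusted p under 0.05. Each had its highest value on mutant replicate 2, and the gap between the groups was narrow.

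The factor eIF6, encoded by eif-6, binds the large ribosomal subunit, takes part in its maturation and keeps it from joining the small subunit too early. Its brighter probe set read 815, 1109 and 727.5 in the mutant and 675, 576 and 707 in N2. The lowest mutant array thus stood just above the highest N2 array. The means were 884 ± 200 in the mutant and 653 ± 68.3 in N2 (SD, n = 3 each), a log2 fold change of 0.41 (SE 0.20, 95% confidence interval -0.06 to 0.88; limma unadjusted p = 0.0769, adjusted p = 0.999). The other eif-6 probe set had a log2 fold change of 0.36, with 548, 742 and 421 in the mutant and 469, 366 and 460 in N2, and there the groups overlapped. Without mutant replicate 2 the log2 fold change of the brighter probe set was 0.24.

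The gene eif-2A encodes a factor that can bring initiator tRNA to the ribosome apart from the eIF2 complex, as known from mammalian and yeast work. It read 532, 898 and 498 in the mutant and 455, 406 and 476 in N2. One array, mutant replicate 2, was far above the rest, and the other mutant arrays lay only slightly above N2. The log2 fold change of 0.46 (SE 0.24; limma unadjusted p = 0.0970, adjusted p = 0.999) was the highest among the members and came to 0.20 without mutant replicate 2.

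The third, eftu-2, is named for its likeness to an elongation factor, but its human counterpart is a GTPase of the U5 particle of the spliceosome. It read 1802, 2248 and 1637 in the mutant and 1382, 1440 and 1628 in N2, so the groups were separated by the 1637 of mutant replicate 3 over the 1628 of N2 replicate 3. The log2 fold change was 0.34 (SE 0.17; limma unadjusted p = 0.0876, adjusted p = 0.999), and 0.21 without mutant replicate 2. With array weights, eif-6, eif-2A and eftu-2 were the 3 members with an unadjusted p under 0.05, a setting in which 6.89% of all probe sets had one, and their adjusted p was 0.669.

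**Figure D2:**
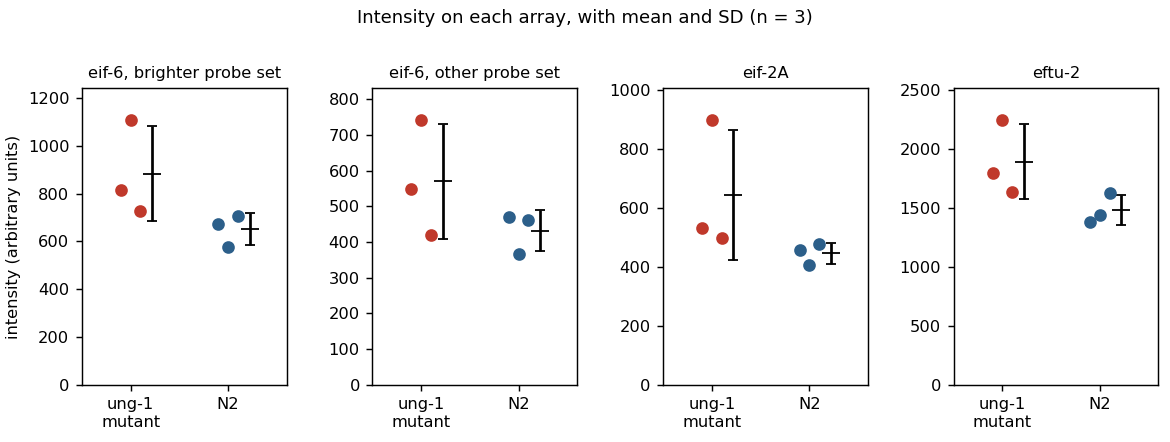
Intensity (vertical axis, arbitrary units, from 0) on each mutant array (red, left) and each N2 array (blue, right) for eif-6 on both of its probe sets, eif-2A and eftu-2, with the mean and SD of each group (n = 3) as a black mark. The lowest mutant points lie just above the highest N2 points, except on the other eif-6 probe set, where they overlap.

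Among the 7 genes of cap binding and eIF4F, 6 fold changes were positive and 1 negative, with a median of 0.12, and all overlapped between the groups. The largest was that of ifg-1, the only eIF4G gene here, which joins the cap-binding protein to the ribosome. It read 416, 413 and 688 in the mutant and 417, 218 and 493 in N2. On the probe set used, mutant replicate 3 was the highest array and N2 replicate 2 the lowest. The remaining 4 arrays lay between 413 and 493. This probe set gave a log2 fold change of 0.44 (SE 0.34, limma unadjusted p = 0.234, adjusted p = 0.999), and 0.11 without N2 replicate 2. The other ifg-1 probe set read 262, 280 and 281 in the mutant and 287, 133 and 291 in N2. There N2 replicate 3 was the highest array and N2 replicate 2 again the lowest.

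The helicase gene inf-1, which encodes eIF4A, showed the same low array. It read 4164, 2801 and 3122 in the mutant and 3003, 1564 and 4047 in N2. Its log2 fold change of 0.31 (SE 0.36) turned to -0.07 without N2 replicate 2.

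The 5 eIF4E genes overlapped between the genotypes and varied over the arrays in different ways. From earlier work ife-1, ife-3 and ife-5 are known for their use in the germline, and ife-2 and ife-4 for theirs in somatic tissue. The gene ife-1, whose protein binds the P granule component PGL-1, read 5375, 5939 and 4205 in the mutant and 4509, 5445 and 4901 in N2. The gene ife-3 read 4043, 3016 and 2265 in the mutant and 2874, 2410 and 3632 in N2. The gene ife-5 read 355, 261 and 168 in the mutant and 214, 346 and 250 in N2. On the probe sets used, mutant replicate 3 was the lowest of the 6 arrays in each of these 3 genes. The other ife-3 probe set read 569, 632 and 361 in the mutant and 576, 316 and 478 in N2. There N2 replicate 2 was the lowest array.

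The somatic pair ran the other way on mutant replicate 3. The gene ife-2 read 370, 389 and 429 in the mutant and 344, 415 and 333 in N2. The gene ife-4 read 145, 116 and 234 in the mutant and 131, 145 and 137 in N2. Both had their highest value on mutant replicate 3. Over the genotypes the log2 fold changes were 0.05 for ife-1 (95% confidence interval -0.37 to 0.48), 0.12 for ife-2 (-0.24 to 0.48), 0.04 for ife-3 (-0.57 to 0.66), 0.18 for ife-4 (-0.40 to 0.76) and -0.08 for ife-5 (-0.78 to 0.63), with a limma adjusted p of 0.999 each.

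The eIF5A genes showed a like contrast. This small factor, the only protein known to carry the amino acid hypusine, helps ribosomes through difficult peptide bonds, and in C. elegans iff-1 is the germline gene and iff-2 the somatic one. The gene iff-1 read 7021, 6069 and 3310 in the mutant and 5101, 7286 and 4795 in N2. The gene iff-2 read 4587, 5506 and 5818 in the mutant and 5978, 6399 and 4276 in N2. On the probe sets used, the lowest array of iff-1 was again mutant replicate 3, where iff-2 had the highest of its mutant values. The log2 fold changes were -0.11 (SE 0.32) for iff-1 and -0.05 (SE 0.20) for iff-2, with overlapping groups and a limma adjusted p of 0.999. The other iff-2 probe set read 783, 1507 and 1167 in the mutant and 963, 1342 and 650 in N2. There the highest mutant value was on replicate 2, and the log2 fold change was 0.23.

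Markers of the germline were also low on mutant replicate 3. Relative to each gene's mean over the 6 arrays, the median of 14 germline and oocyte markers was 0.34 on mutant replicate 1, 0.19 on replicate 2 and -0.70 on replicate 3 on the log2 scale. In N2 it was 0.03, -0.15 and 0.31 on replicates 1, 2 and 3. On mutant replicate 3, iff-1 stood at -0.71, ife-5 at -0.57, ife-3 at -0.39 and ife-1 at -0.26, whereas ife-4 stood at 0.61, ife-2 at 0.17 and iff-2 at 0.11. The likeness was not complete, since on N2 replicate 2 iff-1 and ife-5 stood at 0.43 and 0.40. Nor was the split limited to these paralogs. Among members of other families, eif-2D stood at -0.52 and eif-3.K at -0.32 on mutant replicate 3, whereas ifg-1 stood at 0.70 and eif-3.G at 0.49. The summed intensity of the markers ran from 33584 to 55770 in the mutant and from 43976 to 59606 in N2, with no marker at 0, and 2 of the 14 had all mutant arrays below N2, beside 4.46% of all genes. Other marker lists varied over the arrays as well. On mutant replicates 1, 2 and 3 the median of 10 sperm markers was 0.16, 0.30 and -0.38, that of 8 intestine markers -0.11, 0.36 and -0.32, and that of 6 body wall muscle markers -0.63, 0.86 and 0.06. On N2 replicates 1, 2 and 3 the medians were -0.38, 0.03 and 0.15 for sperm, 0.13, 0.08 and -0.26 for intestine, and 0.41, -0.26 and 0.07 for muscle. Sperm and intestine markers, the second of a somatic tissue, were thus low on mutant replicate 3 too. Muscle markers were not low there, nor were the 5 hypodermis and cuticle markers measured, with a median of 0.03. That hypodermis and cuticle median was nearly level in the mutant, where the first array had 0.06 and the second -0.01. It varied more in wild type, at -0.41, -0.19 and 0.18 by replicate number. In whole RNA, fewer germline cells and less RNA per germline cell cannot be told apart, and the part of the share of any tissue in the translation factor values was not tested.

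**Figure D3:**
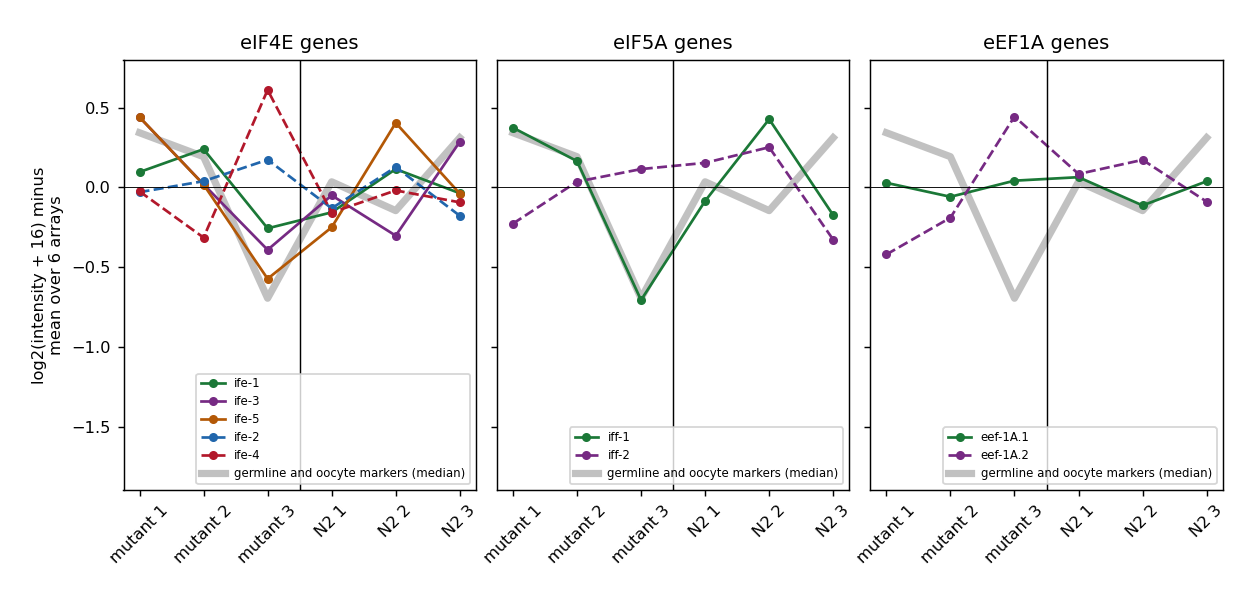
Log2(intensity + 16) minus each gene's mean over the 6 arrays (vertical axis) for the eIF4E, eIF5A and eEF1A genes on each mutant array and each N2 array, with the median of 14 germline and oocyte markers as a grey band. On mutant replicate 3, iff-1, ife-5, ife-3 and ife-1 fall below 0 with the markers, while ife-4, ife-2, iff-2 and eef-1A.2 lie above 0.

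The 10 eIF3 subunit genes had 8 positive and 2 negative fold changes, with a median of 0.09, and their groups all overlapped. The complex they encode holds the small subunit ready for mRNA and initiation factors. The subunit with the smallest unadjusted p, eif-3.I, whose yeast and human counterparts bind those of eif-3.B and eif-3.G, read 269, 342 and 225 in the mutant and 261, 116 and 252 in N2. N2 replicate 2 was less than any other array by a wide margin. Its log2 fold change was 0.45 (SE 0.32; limma unadjusted p = 0.207, adjusted p = 0.999) and 0.10 without N2 replicate 2.

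The remaining eIF3 subunits were closer to no difference. The log2 fold change was 0.21 for eif-3.G, 0.19 for eif-3.E, 0.13 for eif-3.B, 0.11 for eif-3.H, 0.06 for eif-3.C, 0.05 for eif-3.D and 0.01 for eif-3.K, and it was -0.08 for eif-3.F and -0.11 for eif-3.J, the loosely bound subunit. The standard error on the log2 scale was the smallest of the eIF3 genes for eif-3.B (0.14), which averaged 588 ± 29.9 in the mutant and 537 ± 40.6 in N2 (SD, n = 3 each). On the probe sets used for eif-3.C, eif-3.H and eif-3.K, mutant replicate 1 was the highest array and mutant replicate 3 the lowest. The other eif-3.C probe set read 1056, 1290 and 695 in the mutant and 811, 476 and 960 in N2. There mutant replicate 2 was the highest array and N2 replicate 2 the lowest. The eIF3 subunits thus did not share 1 profile over the arrays, as the map of all members by array shows.

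Of the genes for start codon selection and initiator tRNA besides eif-2A, eif-1.A had a log2 fold change of -0.07 (95% confidence interval -0.41 to 0.28). It encodes eIF1A, which helps the scanning subunit find the start codon. The gene eif-2D, whose mammalian counterpart can place tRNA on the ribosome and help recycle it, read 632, 425 and 282 in the mutant and 381, 335 and 496 in N2. Its mutant arrays alone spanned all N2 values, and the log2 fold change was 0.08 (SE 0.30).

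The elongation factor genes had log2 fold changes from -0.11 to 0.10, 3 of 6 positive and a median of -0.02. The eEF1A gene eef-1A.1 read 14723, 13856 and 14862 in the mutant and 15089, 13344 and 14820 in N2. Its log2 fold change of 0.01 had the narrowest interval of the members, from -0.31 to 0.33. The translocase gene eef-2 had 0.03 (-0.30 to 0.37), with 13899 ± 637 in the mutant and 13604 ± 1097 in N2 (SD, n = 3 each). On the probe sets used, a change of 2-fold lay outside the interval for all 6 elongation factor genes. It lay outside for 29 of the 33 members, beside 14040 of all 17118 genes. On the other probe sets of eef-1G, eif-3.C, eif-3.F and iff-2 the interval included a 2-fold rise, with upper ends of 1.04, 1.22, 1.02 and 1.02.

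The second eEF1A gene, eef-1A.2, encodes nearly the same protein as eef-1A.1, and probe sets of such a pair can share targets. It read 3135, 3681 and 5723 in the mutant and 4455, 4738 and 3948 in N2, with mutant replicate 3 the highest array and mutant replicate 1 the lowest. The log2 fold change was -0.11 (SE 0.24), and it was 0.25 and -0.17 on its other probe sets, so no direction can be given. The exchange factor gene eef-1B.1, with the smallest unadjusted p of the elongation genes, read 6538, 6887 and 6914 in the mutant and 6328, 6903 and 5834 in N2, and the groups overlapped. The log2 fold changes of the exchange factor genes were 0.10 for eef-1B.1, -0.04 for eef-1B.2 and -0.09 for eef-1G, each smaller in size than its standard error and with a limma adjusted p of 0.999.

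In termination, erfa-1, the gene of the stop codon reader eRF1, read 1706, 1513 and 1067 in the mutant and 1245, 1067 and 1205 in N2. Mutant replicate 3 read as low as the lowest N2 array, while the other mutant arrays lay above all of N2. For erfa-1 it came to 0.26 on the log2 scale (SE 0.21; limma unadjusted p = 0.249, adjusted p = 0.999), and 0.45 without mutant replicate 3 and 0.12 without mutant replicate 1. Its GTPase partner erfa-3, which encodes eRF3, had -0.09 (SE 0.18). The last member, eif-4A3, is a relative of eIF4A that serves in the exon junction complex of other animals, and it had 0.14 (SE 0.19).

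Most low readings came from the same pair of arrays. Mutant replicate 3 gave the lowest value for 12 of the 33 genes and N2 replicate 2 for 10, so that 22 members had their lowest value on 1 of these, which are the arrays with the lowest weights. Mutant replicate 1 gave the highest value for 11 members, mutant replicate 3 for 7, N2 replicate 2 for 4 and N2 replicate 3 for 0. These counts were not made over all genes, so whether they are particular to the members was not tested. Relative to each gene's mean, the median of all members was 0.10 on mutant replicate 1, 0.04 on replicate 2 and -0.10 on replicate 3. In N2 it was -0.04, -0.05 and -0.04 on replicates 1, 2 and 3. The median of all genes was 0.02, -0.05 and -0.07 on the mutant arrays in the same order and -0.02, 0.08 and -0.02 on the N2 arrays.

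**Figure D4:**
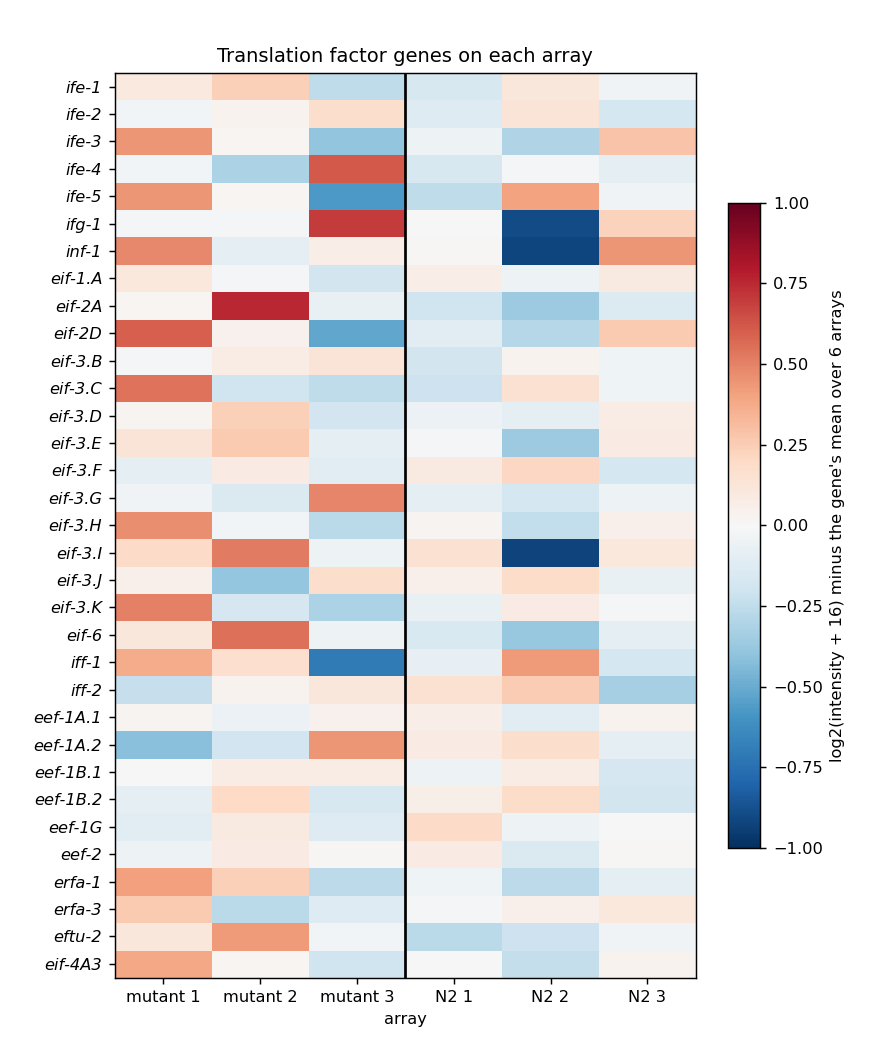
Log2(intensity + 16) minus the gene's mean over the 6 arrays, as colour from blue (low) to red (high), for the 33 translation factor genes (rows) on the mutant arrays (left of the line) and the N2 arrays (right). The dark blue cells are ifg-1, inf-1 and eif-3.I on N2 replicate 2 and iff-1 on mutant replicate 3.

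Of the 33 genes, 17 had several probe sets, which gave the same sign in 10 genes and different signs in 7. Both probe sets of eif-6, of ifg-1, of eif-3.I and of erfa-1 were positive, with log2 fold changes of 0.41 and 0.36, 0.44 and 0.27, 0.45 and 0.32, and 0.26 and 0.23. By contrast eif-3.F had -0.08 on the probe set used here, at 839, 953 and 833 in the mutant and 960, 1042 and 793 in N2. The other eif-3.F probe set had 0.42, at 598, 936 and 896 in the mutant and 560, 773 and 470 in N2. A like gap was seen for eef-1G, with -0.09 and 0.37, and for erfa-3, with -0.09 and 0.30. Among the 16 genes with exactly 2 probe sets, the dimmer one had the higher fold change in 11 and the lower in 5. With all probe sets of a gene averaged, 29 of the 33 genes were positive and the median was 0.12, where 43.1% of all genes and probe sets so averaged were positive.

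**Figure D5:**
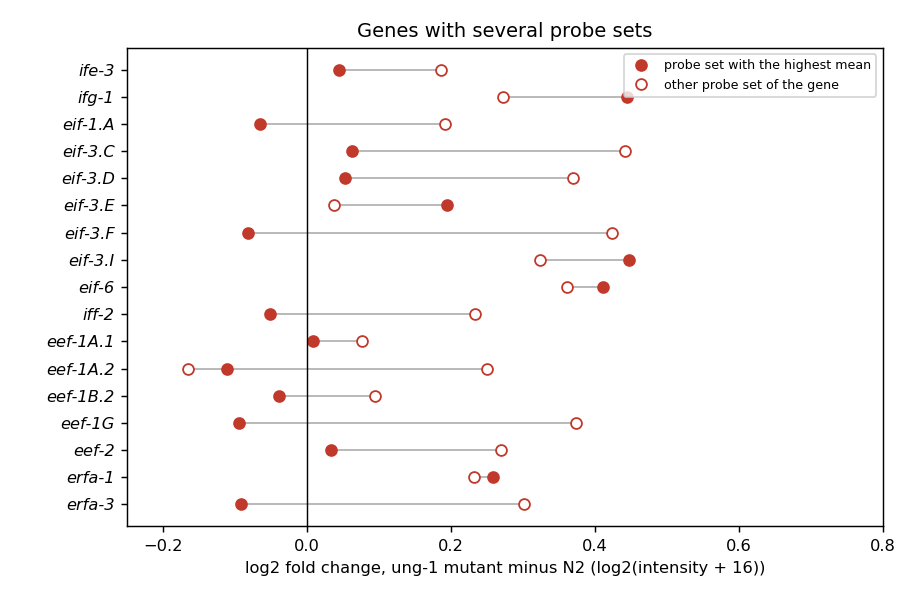
Log2 fold change, ung-1 mutant minus N2, of each probe set (horizontal axis) for the 17 translation factor genes with several probe sets. Filled points are the probe set with the highest mean, open points the others, and the line joining them crosses 0 in 7 genes.

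Other genes of the translation pathway were taken from a list of 30, of which 24 were measured by a probe set naming 1 gene. In limma 0 of these passed the adjusted threshold and 0 had an unadjusted p under 0.05, with 14 positive and 10 negative fold changes and a median of 0.14. The smallest p belonged to raga-1, a Rag GTPase gene that signals amino acid supply to the kinase TOR, at 354, 371 and 291 in the mutant and 249, 251 and 297 in N2. Its log2 fold change was 0.33 (SE 0.16; limma unadjusted p = 0.0802, adjusted p = 0.999). The next was cif-1, which encodes a subunit shared by eIF3 and the COP9 signalosome, at 1024, 1302 and 789 in the mutant and 795, 826 and 753 in N2, with 0.36 (SE 0.20). Both genes overlapped between the groups. Among the negative ones, daf-15, the gene of TOR's partner Raptor, had -0.29 (SE 0.18) and the poly(A)-binding protein gene pab-2 had -0.38 (SE 0.52).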

How the data were processed

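The deposited values are linear intensities, 1 for each probe set on each array, per the file headers; biotin-labelled total RNA was hybridised, per the labels' protocols. The sources used here do not state how probes were summarised, corrected or scaled. Of its cells, 1361 hold whole numbers that match spreadsheet dates; they were turned back into small intensities, 631 as day.month and 730 as month.year. The translation factor probe sets held 0 of them. Control probe sets (77) were left out. Symbols came from the platform annotation and matched RefSeq symbols for all 33 members.

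Tests used limma 3.58.1 (R 4.3.3, two-sided) on log2(intensity + 16), with p-values adjusted by Benjamini-Hochberg over all 22548 probe sets. The offset understates changes of dim genes. The 18 alternatives covered the date cells, offsets of 1 and 50, normalization, filtering, variance models, a replicate block, probe set choice and each array left out. The fit was tested on simulated data. The number of arrays limits the precision.

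Members and lists were chosen with earlier results of these data known. Every member is named. Array values are given for those with groups apart, the smallest p in each role class, and the ife, iff and eef-1A genes; eif-2D, inf-1, daf-15, pab-2, the eif-3.F probe sets and other examples were chosen after their values were seen. No protein or promoter sequences were used here. Figures used Python 3.11.15 and matplotlib 3.10.9.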

Additional observations from a re-analysis of the deposited data

How the results depend on the processing

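In all 18 alternatives 0 translation factor genes passed the adjusted threshold, and the smallest adjusted p of any member was 0.669. Leaving out 1 array at a time gave 0 to 0 genes past it, 19 to 25 positive fold changes and a median log2 fold change from 0.049 (without mutant replicate 1) to 0.17 (without mutant replicate 3). With 1 array left out, 42.8% to 49.5% of all probe sets were positive. The members' median was 0.10 with median centring and 0.12 with a gene's probe sets averaged, against 0.06. Without probe sets marked as matching several transcripts, 12 of the 20 genes left were positive, with a median of 0.05; fewer genes were tested there. In 11 genes, all positive, the sign held in every setting that measured them, and in 22 it turned in at least 1, among them iff-1, ife-5 and eef-1A.2. At an unadjusted p under 0.05 there were 3 members with array weights, beside 6.89% of all probe sets, 3 without mutant replicate 3 (eif-2A, eif-6 and erfa-1), beside 3.69%, and 0 in the remaining settings. With the replicate number as a block, the median was 0.06, 23 genes were positive and 0 passed. Same-numbered arrays correlated at -0.19, 0.09 and 0.10 in their deviations from group means, so the numbers were not taken to pair the samples. No detection calls were used, so the distance of dim probe sets from background is unknown.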
